A study of Mus musculus with 32 samples.

Results

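The contacts of the Stat3 promoter were examined in Capture-C data from small-intestinal organoids of aged mice. The members are the pairs of the Stat3 bait with another fragment at an absolute distance of 10 kb up to 1 Mb from it, joined between both contact tables by the numbers of the bait and of the other fragment. This rule gave 108 of the 1592 Stat3 pairs and of the 30435 pairs of all 14 baits; 101 of the 108 were listed in the one table, 104 in the other and 97 in both. In this assay fixed chromatin is digested with DpnII, which cuts at GATC, nearby fragment ends are joined, and the products that contain a chosen bait are enriched by hybridisation, so that a read count per pair of fragments reports how often they were ligated.

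Organoids are epithelial cultures grown from the stem cells of the crypt. They came from aged C57BL/6JRj mice, an age class that the series gives as 20 to 22 months, were cultured to passages 2 to 5, and received either IFNγ at 500 pg/ml in growth medium for 3 h or growth medium alone. Each library was made from 25000 organoid cells. The 8 libraries, run on 4 lanes each (32 samples), came from 2 mice, and neither young mice nor other cytokines were among them. The samples carry no transgene, Cre or deletion in their labels, and contact counts hold no marker genes with which to check the labelled tissue.

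The treatment behind each table could not be settled, since file names and sample descriptions assign them in opposite ways. The tables are called control-named and IFNγ-named below, and neither is assigned to a treatment. Differences are given as IFNγ-named minus control-named and change sign when subtracted the other way. Each table's 4 libraries stem from 2 mice that the columns do not name, and p-values that treat them as independent may be too small. Reads carry no molecular identifiers, so a count is not a count of independent molecules.

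STAT3 is a transcription factor that is activated by Janus kinases below the receptors of interleukin-6 family cytokines, interleukin-10 and interleukin-22, and it is known in the gut epithelium for its part in regeneration after injury. Interferon gamma also signals through Janus kinases, and activates STAT3 in many cells. The gene shares its neighbourhood with Stat5a and Stat5b, which encode the transcription factors below the growth hormone, prolactin and interleukin-2 receptors and arose with Stat3 by gene duplication. Contacts of a promoter fall steeply with distance, and those that stand above that fall are used as candidates for regulatory elements.

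The bait was the DpnII fragment chr11:100938874-100939386 (GRCm38), 513 bp long, at the 5′ end of Stat3 (ENSMUSG00000004040.16), which lies on the minus strand from 100885098 to 100939540. Upstream of the gene therefore means higher coordinates. The fragment held 1 annotated transcription start site, and the outermost start lay 154 bp beyond its end, on the next DpnII fragment (100939387 to 100940385, 999 bp), at which the tables used here list no read. The sequences below show both sides of that promoter: the first 60 bases of the bait, which lie in an intron and start at its GATC cut (capitals, plus strand), and the 250 bases before the start site given by RefSeq (GRCm38.p6, chr11:100939541-100939790, minus strand).
Stat3 bait: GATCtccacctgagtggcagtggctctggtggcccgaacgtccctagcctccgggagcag
Stat3 promoter: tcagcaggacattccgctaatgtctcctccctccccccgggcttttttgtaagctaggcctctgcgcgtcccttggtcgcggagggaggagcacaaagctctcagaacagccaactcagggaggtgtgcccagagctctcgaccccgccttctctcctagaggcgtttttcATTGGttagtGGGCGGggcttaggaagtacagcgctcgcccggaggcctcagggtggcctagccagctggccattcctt
In the promoter the capitals mark ATTGG, the CCAAT box read on the other strand, and GGGCGG, a GC box. On either strand, 33.8% and 32.7% of 32851 mouse promoters in the RefSeq table hold these words. TTCNNNGAA, the palindromic word that STAT dimers bind, was not among these letters, and 7.02% of the promoters hold it.

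The fragments below carry contacts that the results name, chosen among those of at most 300 bp outside untranslated regions. Capitals mark the GATC cut at the left end and any match to TTCNNNGAA or to the core of the word bound by the architectural protein CTCF (CC, any 4 bases, GG, any base, GGC), both searched on both strands. Not printed are further fragments of this kind at 17.6, 61.5, 103.5 and 144.0 kb downstream. They were supported in 4 or more libraries and hold neither word. Those printed are given on the plus strand of GRCm38. The first, chr11:100914632-100914847 in a Stat3 intron, was supported in all 8 libraries and holds a STAT word. The second, chr11:100906256-100906496 in a Stat3 intron, also holds one and was supported in 4 libraries. The next pair, chr11:101044796-101045040 at an exon of Atp6v0a1 and chr11:101080024-101080247 at an exon of Hsd17b1, were supported in all 8 libraries upstream of the gene, and the latter holds a CTCF word. After these, chr11:101122875-101123015 in an intron of Tubg1, was the one contact called by the deposited score in both tables. The last, chr11:100490770-100490966 in an intron of Acly, was the farthest supported in 4 or more libraries.
24.4 kb downstream: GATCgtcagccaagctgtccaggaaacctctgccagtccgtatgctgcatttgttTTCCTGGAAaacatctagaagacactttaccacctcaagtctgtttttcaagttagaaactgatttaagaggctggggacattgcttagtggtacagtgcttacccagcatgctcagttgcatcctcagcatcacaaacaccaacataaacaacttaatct
32.8 kb downstream: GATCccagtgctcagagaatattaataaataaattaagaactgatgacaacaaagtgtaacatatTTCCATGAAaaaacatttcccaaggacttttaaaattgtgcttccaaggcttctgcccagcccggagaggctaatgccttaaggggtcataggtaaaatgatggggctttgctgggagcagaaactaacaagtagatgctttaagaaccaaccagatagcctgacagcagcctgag
105.8 kb upstream: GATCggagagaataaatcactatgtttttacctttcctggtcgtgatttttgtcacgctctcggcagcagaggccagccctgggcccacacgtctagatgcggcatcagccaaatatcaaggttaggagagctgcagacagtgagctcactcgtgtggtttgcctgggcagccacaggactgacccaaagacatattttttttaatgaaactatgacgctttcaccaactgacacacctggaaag
141.0 kb upstream: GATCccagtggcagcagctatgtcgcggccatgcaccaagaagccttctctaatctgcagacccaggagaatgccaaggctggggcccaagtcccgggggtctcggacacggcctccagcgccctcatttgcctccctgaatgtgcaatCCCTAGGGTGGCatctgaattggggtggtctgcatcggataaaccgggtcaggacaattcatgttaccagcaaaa
183.8 kb upstream: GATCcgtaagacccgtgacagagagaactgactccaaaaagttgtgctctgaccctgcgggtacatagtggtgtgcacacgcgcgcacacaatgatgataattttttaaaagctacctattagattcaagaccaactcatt
448.3 kb downstream: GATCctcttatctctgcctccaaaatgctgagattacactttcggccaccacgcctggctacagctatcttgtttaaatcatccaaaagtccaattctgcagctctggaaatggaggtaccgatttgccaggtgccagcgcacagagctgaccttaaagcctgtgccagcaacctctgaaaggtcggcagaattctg

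The STAT word was found in 12.04% of the 4037 DpnII fragments of at least 100 bp available in the range, in 18.5% of the 92 fragments with 10 or more reads and in 11.5% of the 26 supported in 4 or more libraries. The CTCF word was found in 11.3%, 7.61% and 3.85% of them. Their median lengths differed, at 364, 445 and 384 bp, and a longer fragment holds a given word more often.

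The libraries held 23037 to 37290 reads over all baits and 1098 to 2104 at the Stat3 bait. Within 10 kb to 1 Mb the control-named libraries 1 to 4 held 663, 678, 723 and 659 Stat3 reads, and the IFNγ-named libraries 1 to 4 held 391, 721, 356 and 464. Over all 8 this was 4655 reads, 2723 and 1932 by table. By these range reads IFNγ-named libraries 3 and 1 were the shallowest, and the second of that table lay close to the deepest control-named one; the order differed for the reads of all baits.

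Stat3 contacts in the range were sparse. Of the 4037 available fragments 2.68% had a read, 51 upstream and 57 downstream of the bait. Their reads over both tables ran from 1 to 211 with a median of 36.5; 16 fragments had under 10 reads, and the remaining 92 are the ones described per library and tested. Of these 92, 76 had a read in all 8 libraries. At the lower edge of the range, the fragment upstream at 10.2 kb had 83 reads and the nearest one left out, at 9.4 kb, had 7; downstream, the values were 52 reads at 10.1 kb and 1 read at 8.9 kb. At the upper edge they were 71 reads upstream at 992.3 kb inside and 69 at 1035.3 kb outside, and 121 downstream at 837.3 kb inside and 64 at 1033.5 kb outside.

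The contacts supported across libraries by the measure given next lay mostly inside Stat3, Stat5a, Stat5b, Cavin1, Atp6v0a1 and Ezh1. A library was counted as supporting a fragment with 3 or more reads and at least 25% of the count of the library with most. By this measure 26 of the 92 fragments (28.3%) were supported in 4 or more libraries, and they held 1481 reads, 31.8% of those in the range. The same measure gave 259 of the 960 fragments (27.0%) with 10 or more reads at the 13 other baits. The 26 lay 14.9 to 448.3 kb from the bait, with a median of 63.35 kb, 10 upstream and 16 downstream. Of them 7 lay in Stat3, 3 each in Stat5a and Ezh1, and 2 each in Stat5b, Cavin1 and Atp6v0a1. Of them 15 lay in introns, 8 overlapped exons and 3 lay between genes; introns made up 57.7% of the 26, 51.1% of the 92 and 33.6% of the available fragments. Fragments between genes made up 11.5%, 20.7% and 38.0%. A start site within 1 kb was found at 4 of the 26 (15.4%), at 24 of the 92 (26.1%) and at 23.4% of the available fragments. Because fragments near the bait lie in Stat3 and Stat5a, these shares also reflect distance, and no test was made of them.

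**Figure D1:**
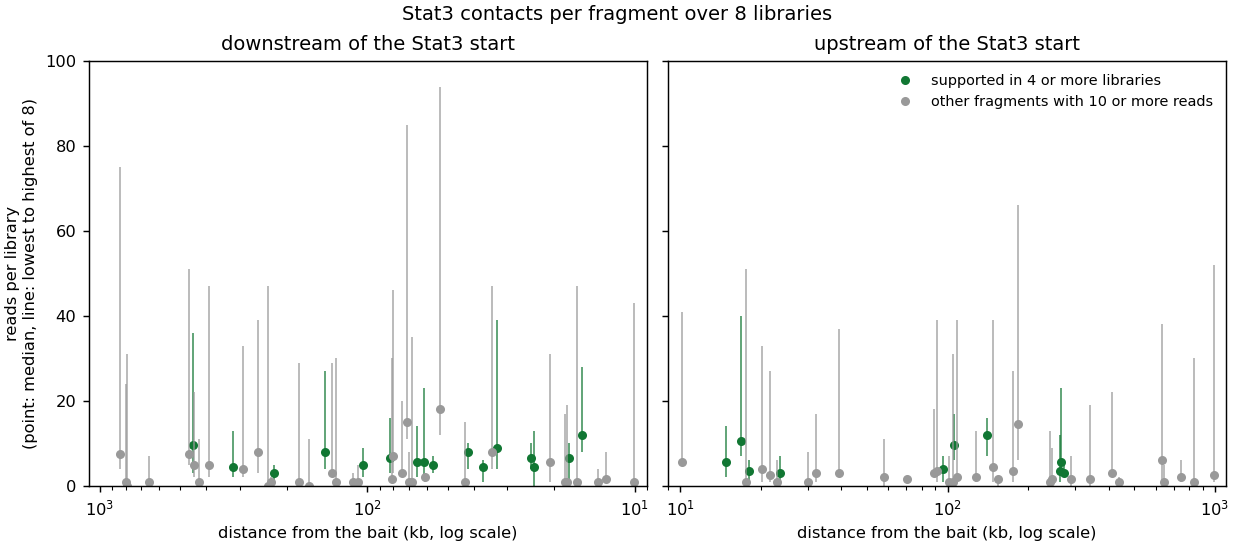
Reads per library at the 92 Stat3 fragments with 10 or more reads, by distance from the bait (kb, log scale; downstream left, upstream right). Points are medians and lines run from the lowest to the highest of 8 libraries; green marks the 26 fragments supported in 4 or more libraries, whose medians lie between 3 and 12 reads, and grey lines reach 94 reads.

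Support in all 8 libraries was found at 6 fragments. Inside Stat3, the intronic fragment 15.7 kb downstream of the bait had 15, 14, 10 and 12 reads in the control-named libraries and 28, 11, 8 and 12 in the IFNγ-named ones. The intronic fragment at 42.1 kb had 8, 10, 8 and 10 reads against 4, 7, 5 and 8. The intronic fragment at 24.4 kb, printed above with its STAT word, had 4, 7, 10 and 8 reads against 4, 4, 7 and 6. In each of these fragments the tables overlapped. An exon-bearing fragment of Stat5a at 57.0 kb, whose product transmits prolactin and growth hormone signals, had 7, 5, 5 and 3 reads against 4, 7, 5 and 5.

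The remaining pair lay upstream, beyond Cavin1. The exon-bearing fragment of Atp6v0a1, which encodes a membrane subunit of the proton pump that acidifies vesicles, lay 105.8 kb from the bait and within 1 kb of a start site of that gene; it had 13, 17, 11 and 8 reads in the control-named libraries and 7, 16, 8 and 6 in the IFNγ-named ones. The exon-bearing fragment of Hsd17b1, an enzyme that makes estradiol, lay at 141.0 kb and had 13, 13, 16 and 11 reads against 8, 14, 7 and 8. Divided by each library's Stat3 reads in the range, Hsd17b1 held 1.67% to 2.21%, a mean of 1.93% ± 0.172 (SD, n = 8 libraries), with the tables overlapping. By edgeR the log2 difference was -0.39 (SE 0.513) at the Hsd17b1 fragment with an adjusted p of 0.612, and -0.24 (SE 0.54) at the Atp6v0a1 fragment with an adjusted p of 0.773.

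At most of the fragments with most reads, 1 library stood far above the other 7, which lowers their support by the measure above. The fragment with most reads, at 53.6 kb on the 3′ end of Stat3, had 24, 19, 18 and 94 reads in the control-named libraries and 12, 18, 14 and 12 in the IFNγ-named ones. Control-named library 4 held 44.5% of its 211 reads, yet its median over the 8 libraries, 18 reads, was also the highest of any Stat3 fragment. The next, in a Stat5a intron at 70.8 kb, had 20, 17, 85 and 15 reads against 11, 15, 12 and 12, with a median of 15 reads. The Tubg1 intron at 183.8 kb upstream, in the gene of γ-tubulin that nucleates microtubules, had 15, 13, 15 and 66 reads against 6, 14, 10 and 16, with a median of 14.5. In all 3 the high library belonged to the control-named table, though not the same library each time, and the other libraries of both tables overlapped. These 3 fragments had the highest medians of all, with at least 12, 11 and 6 reads in every library. They counted as supported in only 2, 1 and 1 libraries, because the measure is set by the library with most reads.

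Of the 8 fragments with most reads, 5 more followed at 97 to 121 reads. The intergenic fragment at 837.3 kb downstream had 8, 75, 9 and 8 reads against 4, 6, 7 and 4. The intergenic fragment at 16.9 kb upstream, between Stat3 and Cavin1, had 17, 10, 12 and 11 against 40, 9, 7 and 7. The intergenic fragment at 463.3 kb downstream had 51, 7, 10 and 11 against 7, 8, 6 and 5. The last of them, the Stat3 intron at 32.8 kb with a STAT word, had 13, 6, 10 and 8 against 6, 39, 4 and 11. The single high library thus fell in either table, and the fragment at 15.7 kb given above was the one of these 8 supported in every library. The fragments at 16.9 and 32.8 kb were supported in 5 and 4 libraries. Together the 8 held 23.6% of the reads in the range.

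Over the 92 fragments, the library with most reads held a median of 47.3% of a fragment's reads. In 36 fragments (39.1%) it held over 50%, and these 36 held 35.8% of all reads in the range. The other 13 baits had 402 of 960 such fragments (41.9%). The library in question was IFNγ-named library 2 in 10 of the 36 and IFNγ-named library 3 in 1, with 2 to 6 in each of the other libraries. In 8 of the 36 the other 7 libraries each had exactly 1 read. Among these were the 3′ end of Cavin1 at 17.7 kb, with 51 reads in control-named library 4, and a Stat3 intron at 16.5 kb, with 47 in control-named library 3. The cause of these single high counts was not tested.

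**Figure D2:**
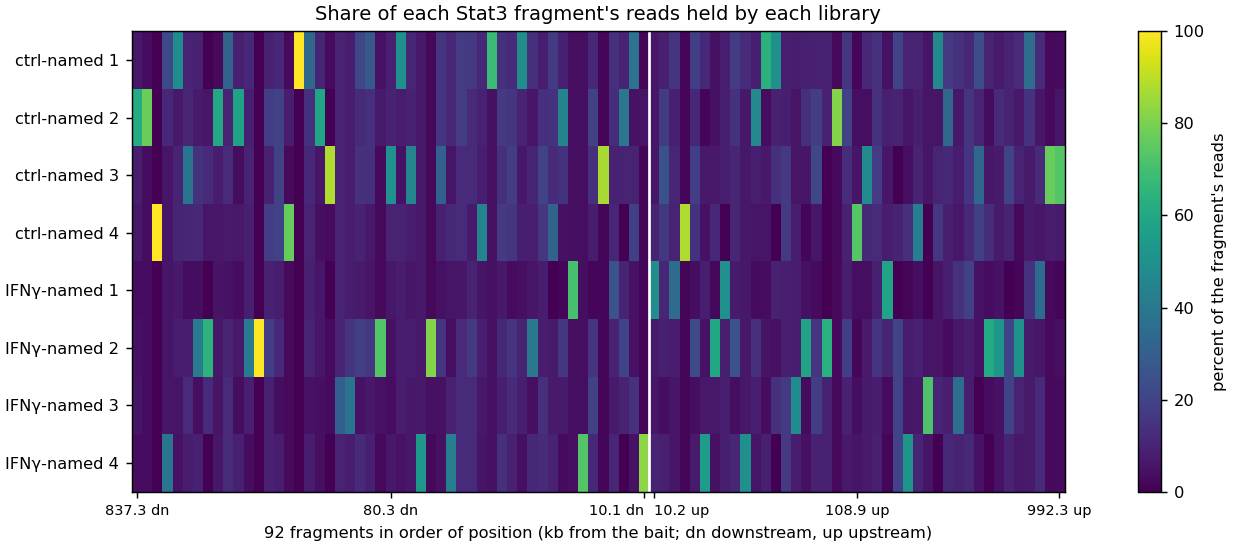
Share of each fragment's reads held by each of the 8 libraries (colour, percent) for the 92 Stat3 fragments with 10 or more reads, in order of position from 837.3 kb downstream to 992.3 kb upstream. Single bright cells mark the 36 fragments at which 1 library held over 50%; they lie in rows of both tables.

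The authors' score, which sets each count against a modelled background, was 5 or more at 9 Stat3 fragments in the control-named table and at 8 in the IFNγ-named table. Over all baits, 11.8% of the pairs listed in the control-named table at 10 kb to 1 Mb and 10.4% of those in the IFNγ-named table had such a score. Only the Tubg1 intron at 183.8 kb had it in both, with scores of 5.61 and 5.27; the threshold sets this count, and 53.6 and 70.8 kb missed it in the IFNγ-named table with scores of 4.77 and 4.87. In all 15 fragments called in 1 table, the library with most reads was one of that table. The score is 1 value over the 4 libraries of its own table, so this follows largely from how the calls are made. Of the 16 called in either table, 8 had over 50% of their reads in 1 library and 2 were supported in 4 or more libraries: the Acly intron at 448.3 kb, with 9, 10, 36 and 10 reads against 3, 7, 11 and 7, and an Ezh1 intron at 266.3 kb, with 9, 4, 5 and 4 against 9, 4, 23 and 6. Of the 6 fragments supported in all 8 libraries none had a score of 5; the Hsd17b1 fragment had 4.83 and 4.94 and the Atp6v0a1 fragment 4.73 and 4.82.

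The remaining calls of the control-named table were the fragments at 837.3 and 463.3 kb downstream, Ttc25 at 391.1 kb, Zfp385c at 290.8 kb and the intergenic fragment at 992.3 kb upstream. Those of the IFNγ-named table were a second Acly fragment at 445.3 kb, Zfp385c at 256.5 kb, Dhx58 at 235.3 kb, Atp6v0a1 at 91.6 kb, an intergenic fragment at 147.9 kb upstream within 1 kb of a start site of Mlx, and Nbr1 at 631.9 kb. Among these calls the library with most reads held from 40.7% of a fragment's reads, at Acly, to 100%, at Dhx58. At Ttc25, control-named library 2 had 47 of 78 reads. At Nbr1, the gene of an autophagy receptor, IFNγ-named library 2 had 38 of 74. At the fragments at 463.3, 445.3 and 256.5 kb most reads lay outside the top library, with 54 of 105, 32 of 54 and 55 of 94.

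By gene, Stat3 reads in the range fell most on Stat3 itself and then on Stat5a. Stat3 fragments held 24.4%, 19.0%, 19.9% and 26.4% of the range reads in the control-named libraries and 21.5%, 17.1%, 21.6% and 29.1% in the IFNγ-named ones. Stat5a held 9.95%, 6.49%, 15.6% and 5.46% against 7.16%, 10.3%, 8.99% and 11.9%. The lowest value of Stat3 lay above the highest of Stat5a. Stat5b, the paralog beyond Stat5a, held 6.79%, 6.93%, 6.92% and 2.58% against 3.84%, 3.19%, 5.06% and 3.23%. Control-named library 4 was the lowest of all 8 there, while the other 3 of its table lay above every IFNγ-named library.

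Over 8 libraries the mean shares were 22.4% ± 4.01 at Stat3, 9.48% ± 3.27 at Stat5a, 7.36% ± 3.12 at Atp6v0a1, 5.36% ± 3.43 at Cavin1, which encodes a coat protein of caveolae and is the nearest gene upstream, and 4.82% ± 1.85 at Stat5b (SD, n = 8). Acly, which makes acetyl-CoA from citrate, followed with 3.36% ± 1.81, Tubg1 with 3.27% ± 2.79, Ezh1 with 3.14% ± 2.18 and Zfp385c, a zinc-finger gene, with 3.11% ± 1.84; these are the 9 protein-coding genes with most reads. From Stat5a down, neighbours in this order differed by less than their spread. Per available fragment the order among these 9 genes and Hsd17b1, which has 4 fragments, was another. Hsd17b1 had 22.5 reads, Stat3 11.3, Tubg1 9.75, Stat5a 8.30, Cavin1 7.69 and Atp6v0a1 2.76. Stat5b with 1.85, Ezh1 with 1.81, Acly with 1.39 and Zfp385c with 1.10 followed. These levels were not corrected for distance.

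**Figure D3:**
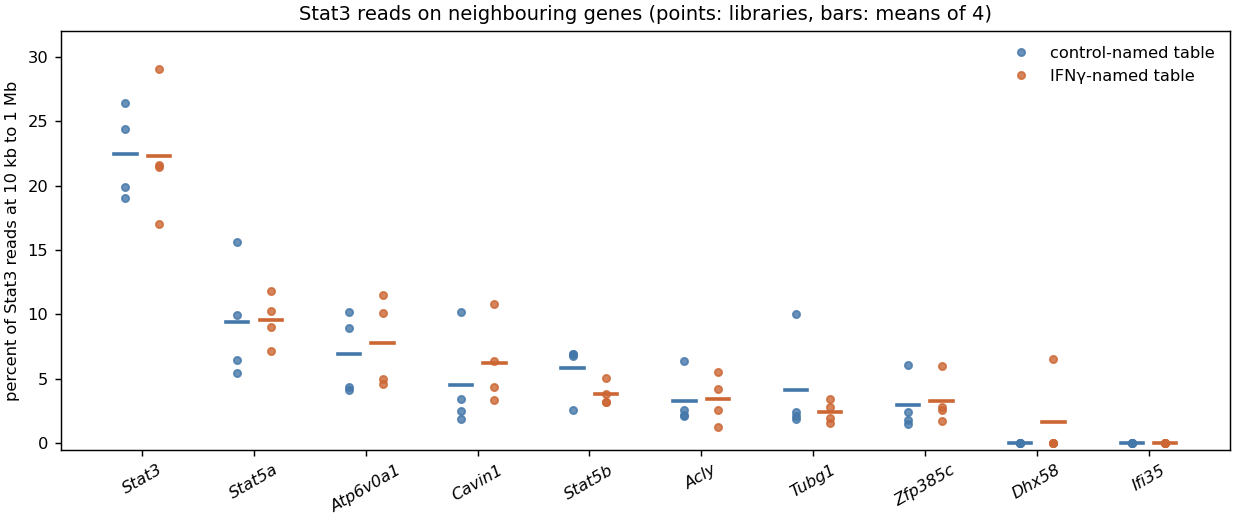
Percent of a library's Stat3 reads at 10 kb to 1 Mb that fell on each neighbouring gene, with 4 libraries per table as points and their means as bars. Stat3 lies at 17.1% to 29.1% in every library; from Stat5a down the points of both tables overlap, Dhx58 has 1 library at 6.52% and 7 at 0, and Ifi35 is at 0 in all 8.

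None of the gene-level differences between the tables passed. Of the 26 neighbouring genes with 10 or more reads 0 were called by edgeR at an adjusted p of 0.05 (smallest 0.276), against 0% of the 191 genes tested over all baits. At an unadjusted p of 0.05 there were 5 of 26 (19.2%) by edgeR, against 17.3% of the 191. The 5 were Dhx58, higher in the IFNγ-named table, and Stat5b, Etv4, Kcnh4 and Krt19, higher in the control-named table (4 of 26, against 8.9% of the 191). DESeq2 called 0, with 2 of 26 under that unadjusted p (7.69%), against 22 of the 191. It gave no adjusted p for 14 of the 191. Stat5b had a log2 difference of -1.01 (SE 0.456) and an edgeR adjusted p of 0.276. Stat5a had -0.38 (SE 0.498) with an edgeR adjusted p of 0.680, and Stat3 itself -0.43 (SE 0.318) with one of 0.441. The median over the 26 was -0.23. In none of the 26 did the library shares of the tables fail to overlap, which 3.14% of the genes over all baits did.

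Among the gene groups, the 3 STAT genes all had reads, 1706 in all, with 0 called and a median log2 difference of -0.43. Of the interferon-inducible genes in the range, Dhx58, which encodes an RNA sensor of the RIG-I family, had 47 reads, all in IFNγ-named library 2 on 1 fragment, and Ifi35 had none on its 27 fragments. Of the 7 keratin and junction genes on the list, which leaves out other keratin genes of the range, 1 had reads: Krt19, a keratin of simple epithelia, had 31, all in control-named library 4. For both genes the other 7 libraries were at 0, where a count of 0 allows up to 3 reads. Of the 6 genes listed as metabolism and proteasome 3 had reads, with 0 called and a median of -0.14. The members with reads were Atp6v0a1, with a log2 difference of -0.14, Acly, with -0.32, and Psmc3ip, with 0.69 on 10 reads; the last is known as a factor of meiotic recombination and is neither a metabolic nor a proteasome gene, so the list's count and median include a gene that its name does not cover. Of the 3 chromatin and DNA repair genes 2 had reads, the Polycomb methyltransferase gene Ezh1 with 127 and the acetyltransferase gene Kat2a with 11, with 0 called and a median of 0.08. Of all 85 protein-coding genes in the range 28 had reads and 25 had 10 or more.

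At the level of fragments, 0 of the 92 were called by edgeR (smallest adjusted p 0.281), against 0% of 3673 pairs over all baits. DESeq2 called 0, with 8 of the 92 at an unadjusted p under 0.05 (8.70%), against 282 of the 3673 pairs. It gave no adjusted p for 357 of the 3673. By edgeR 16 of the 92 had an unadjusted p under 0.05 (17.4%, against 16.8% of the 3673 pairs), 11 higher in the control-named (against 8.44% of the pairs) and 5 higher in the IFNγ-named table. In 15 of the 16 a single library held over 50% of the reads. The exception was the intergenic fragment at 289.1 kb upstream, with 5, 2, 7 and 4 reads in the control-named libraries and 1, 1, 0 and 1 in the IFNγ-named ones. Its log2 difference was -2.32 (SE 0.757) with an edgeR adjusted p of 0.281, and it was one of 3 fragments whose library shares did not overlap between the tables (3.26% of 92, against 3.14% over all baits). The others were a Stat5a intron at 68.2 kb, with 1 read in each control-named library and 1, 35, 2 and 1 in the IFNγ-named ones, and a Stat5b intron at 108.6 kb, with 1 in each and 1, 2, 5 and 1. At both introns counts of 1 occurred in both tables, so the raw counts overlapped. Their shares separated because IFNγ-named libraries 1 and 4 had 391 and 464 range reads, against 659 to 723 in the control-named libraries. In windows of 10 kb, 0 of 51 were called by edgeR (smallest adjusted p 0.291), against 0% of 636. By edgeR 8 had an unadjusted p under 0.05 (15.7%, against 16.5%), 7 of them higher in the control-named table (against 8.18%). DESeq2 called 0, with 6 of 51 under that unadjusted p (11.8%), against 62 of the 636. It gave no adjusted p for 52 of the 636.

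Reads were unevenly spread over both sides of the bait. Upstream fragments held 36.0%, 31.4%, 36.7% and 44.5% of the range reads in the control-named libraries and 55.2%, 41.2%, 46.3% and 42.2% in the IFNγ-named ones. The tables overlapped through control-named library 4. The means were 37.1% ± 5.41 and 46.3% ± 6.39 (SD, n = 4 each), a difference of 9.11 percentage points with a two-sided exact permutation p of 0.0857 and 0.143 after Benjamini-Hochberg adjustment over the 5 comparisons of this kind. The smallest p that 4 against 4 libraries allow is 0.0286. Counted as distinct fragments in place of reads, the difference was -0.596 points.

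Per available fragment, upstream reads were fewer than downstream reads in 7 of 8 libraries, IFNγ-named library 1 being the exception. The log2 ratio averaged -0.51 (SD 0.439, n = 8), or 1.42 times more reads per fragment downstream, with a two-sided exact sign-flip permutation p of 0.0234 and an adjusted p of 0.0586 over the 5, which missed the threshold. Counted as distinct fragments in place of reads, the log2 ratio was -0.18, and with reads capped at 10 it was -0.47. Both had an unadjusted exact sign-flip permutation p of 0.0078. The sides differed most at 50 to 100 kb, where the 3′ end of Stat3, Stat5a and part of Stat5b lie downstream. There 100 available fragments held 895 reads downstream and 171 upstream. Of the 850 downstream reads in this step Stat5a held 448, and the Stat5b fragment at 90.3 kb held 2. The 3′ end of Stat3 at 53.6 kb held 211, with 94 of them in control-named library 4. At 10 to 50 kb the values were 973 and 750, at 100 to 200 kb 137 and 280, at 200 to 500 kb 102 and 47.8, and beyond 500 kb 19.96 and 20.9. Upstream was thus the denser side at 100 to 200 kb, where part of Atp6v0a1, Hsd17b1 and Tubg1 lie.

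The share of fragments with any read fell with distance, from 19.3% of those available at 10 to 50 kb over 10.6%, 4.60% and 1.99% to 0.585% beyond 500 kb. Among the fragments that had reads, the number of reads showed little relation to distance: Spearman's coefficient was -0.10 over the 108 fragments, which share libraries and the capture, and -0.14 with fragment length. Compared with the 13 other baits, Stat3 placed more of its range reads at 50 to 100 kb, 21.7% ± 4.73 against 11.97% ± 1.14 (SD, n = 8 libraries), and fewer beyond 500 kb, 8.45% ± 4.62 against 14.4% ± 2.96. At 10 to 50 kb it had 31.97% ± 8.90 against 34.8% ± 2.22, within its spread. These steps were described and not tested.

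**Figure D4:**
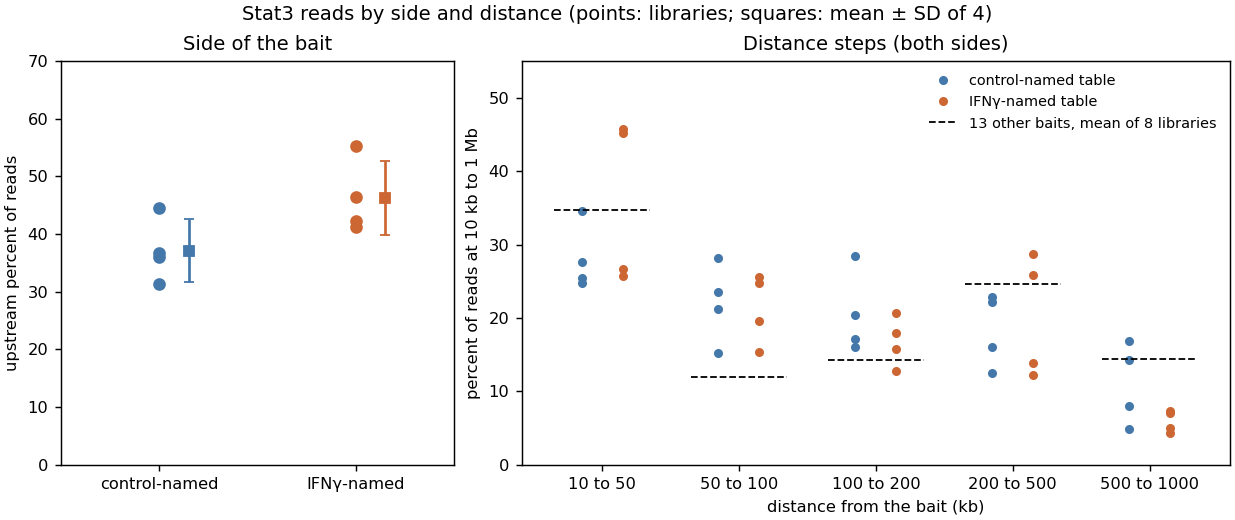
Left, percent of Stat3 reads at 10 kb to 1 Mb that lie upstream of the bait, per library with mean ± SD of 4; right, percent of those reads in 5 distance steps per library, with the mean of the 13 other baits as dashed lines. The upstream share is 31.4% to 44.5% in the control-named and 41.2% to 55.2% in the IFNγ-named table, and all 8 libraries lie above the dashed line at 50 to 100 kb.

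The range itself held a larger part of Stat3 reads than of the reads of the other baits. Of all Stat3 reads, 31.5%, 34.7%, 37.9% and 36.8% lay at 10 kb to 1 Mb in the control-named libraries and 35.6%, 37.2%, 25.5% and 35.4% in the IFNγ-named ones. The tables overlapped: the means were 35.2% ± 2.81 and 33.4% ± 5.36 (SD, n = 4 each), a difference of -1.80 points with a two-sided exact permutation p of 0.657 and an adjusted p of 0.657. Without IFNγ-named library 3 the difference was 0.849 points. Against the pooled reads of the 13 other baits in the same library the Stat3 share was higher in 8 of 8 libraries, by 9.02 points on average (SD 4.40), from 0.912 in IFNγ-named library 3 to 14.5 in control-named library 3. The two-sided exact sign-flip permutation p was 0.0078, the smallest that 8 libraries allow, and 0.0391 after adjustment over the 5.

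By mean share over 8 libraries Stat3 stood first of the 14 baits, with 34.3%, followed by Klf4 with 33.0%. Stat3 was above Klf4 in 5 of 8 libraries, above Lifr in 6 and above Esrrb.2 in 7, so that it did not stand apart from Klf4 beyond the spread; it was above each of the 10 other baits in all 8. The baits whose share moved most like that of Stat3 over the 8 libraries were Sall4, with a Spearman coefficient of 0.57, and Esrrb.2, with 0.50; these baits share the libraries, and the values are descriptions.

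**Figure D5:**
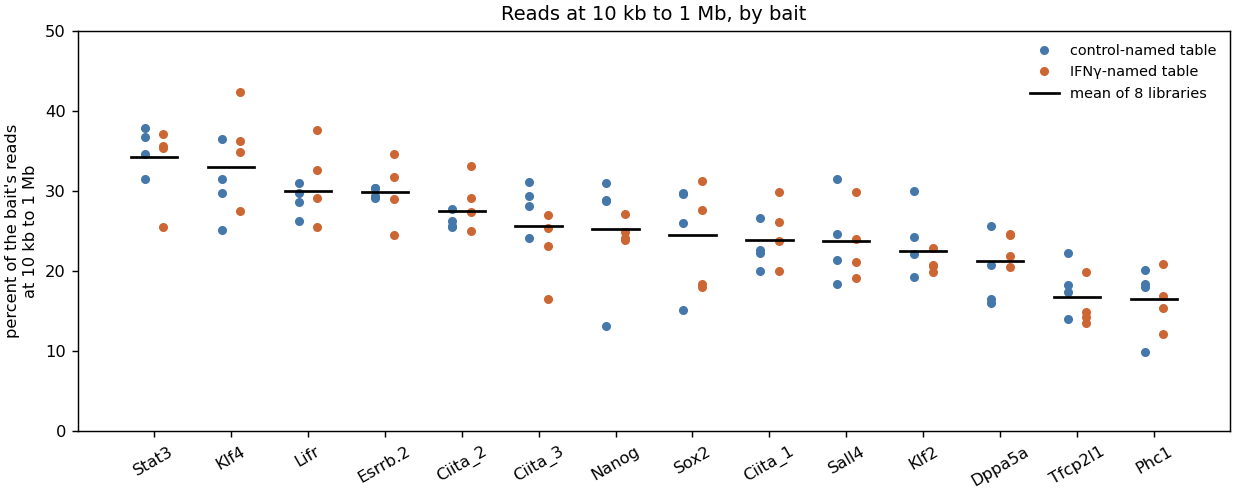
Percent of each bait's reads that lie at 10 kb to 1 Mb, for 14 baits ordered by their mean over 8 libraries (black bars); points are libraries, coloured by table. Stat3 is first with a mean of 34.3% and 1 library at 25.5%, and Klf4 overlaps it.

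The joint share of Stat5a and Stat5b, the genes most closely related to Stat3, was 16.7%, 13.4%, 22.5% and 8.04% in the control-named libraries and 10.997%, 13.5%, 14.0% and 15.1% in the IFNγ-named ones. Control-named libraries 3 and 4 were the highest and the lowest of all 8. The means were 15.2% ± 6.08 and 13.4% ± 1.74 (SD, n = 4 each), a difference of -1.79 points with a two-sided exact permutation p of 0.657 and an adjusted p of 0.657. Without control-named library 3, which held 85 reads on the Stat5a intron at 70.8 kb, the difference was 0.660 points.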

How the data were processed

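Capture-C libraries were made from fixed organoid nuclei cut with DpnII and ligated in situ, per the labels' protocols. The submitters' processing notes name Bowtie2 and mm10; versions and duplicate handling were not given in the sources used here. As deposited, the 2 tables hold read counts of 4 libraries per fragment pair, and, per the file headers, a score and a modelled background signal in the layout of the CHiCAGO caller. Pairs were joined by fragment number, with counts of 0 where a table did not list the pair. All 19127 fragment starts checked lay at a GATC of GRCm38 (100%). Genes came from GENCODE.

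Counts were tested with edgeR 4.0.16 (quasi-likelihood, TMM, a minimum of 10 reads in all, Benjamini-Hochberg over all baits) in R 4.3.3, and alternatively with DESeq2 1.42.0. Library shares were compared by exact permutation in scipy 1.17.1. Alternatives changed the filter, the normalization, the distance range, windows of 25 kb, distinct fragments, a cap of 10 reads per pair and library, and left out each library. The edgeR step was tested on simulated data. Text names the 8 fragments with most reads, those with a score of 5 or more and those supported in all 8 libraries. Of the fragments supported in 4 or more libraries but not in all 8, most were counted and not named. Also named are the edges of the range, STAT and interferon-inducible genes and the nearest genes. The 8 protein-coding genes with most reads and the 2 baits most alike are named too. Other fragments and genes with an unadjusted p under 0.05, without overlap or with reads in 1 library were named after their values were seen. The members and lists were chosen with earlier results of these data known.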

Additional observations from a re-analysis of the deposited data

Results flagged for a closer look

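In 5 of 27 groups of 4 libraries tested for one value far from the other 3, such a library was found, where chance gives about 1.35. In the control-named table, Stat5b held 2.58% of the Stat3 range reads in library 4 against 6.79% to 6.93% in the others. Acly held 6.36% in library 3 against 2.11% to 2.58%, and Tubg1 held 10.02% in library 4 against 1.92% to 2.41%. In the IFNγ-named table, the share of Stat3 reads at 10 kb to 1 Mb was 25.5% in library 3 against 35.4% to 37.2% in the others, and Dhx58 held 6.52% in library 2 against 0 in the others. Chance flags about 1 group in 20.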

How the results depend on the processing

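Of 104 alternatives to the reported results, 93 kept the direction and the side of the threshold and 8 turned a direction. The causes were not tested. Of the 40 alternatives that did not leave out a library, 31 stayed the same. Results that are counts of calls have no direction, and for them staying the same meant 0 calls again. The difference in upstream share, 9.11 points (p = 0.0857, exact permutation, n = 4 libraries each), was -0.596 with distinct fragments, 2.43 with reads capped at 10 (exact permutation p = 0.0286) and 11.5 at 20 kb to 1 Mb (exact permutation p = 0.0286), and 6.12 to 11.6 with single libraries left out. The difference in the range share, -1.80 points, was 4.83 with distinct fragments, 0.272 with capped reads, 0.170 at 10 to 500 kb, and -3.06 to 0.849 with single libraries left out. The Stat5a and Stat5b difference, -1.79 points, was 0.180 with distinct fragments, 0.791 with capped reads, and -4.17 to 0.660 with single libraries left out. With no filter on reads, edgeR called 5 Stat3 fragments, among 168 of 30435 pairs: Dhx58, Krt19, a Stat5b intron at 131.1 kb, a Stat3 intron at 16.5 kb and Cavin1 at 17.7 kb, each with most reads in 1 library. The sign-flip results against downstream reads and against other baits kept their direction in every alternative run, at -0.62 to -0.42 and 8.24 to 10.2 with single libraries left out; with distinct fragments they were -0.18 and 7.04. No paired analysis was possible because the count columns name neither mouse nor passage. With 8 libraries of 356 to 723 range reads, small differences were not detectable, and larger ones could also go uncalled. At 289.1 kb upstream a log2 difference of -2.32 (SE 0.757) had an edgeR adjusted p of 0.281. The 0 calls therefore do not show that larger differences were absent.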
